A study of Mus musculus with 18 samples.

Results

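Ribosome biogenesis factors are the proteins that build ribosomes, and their expression was examined in mouse lung fibroblasts that had or had not entered a collagen gel. A list of 40 genes, taken by gene symbol, defined the set. Of these, 38 had a probe set (the group of array probes summarized to 1 value) that carried their symbol alone, out of 19938 such genes on the array. Noc2l had no probe set, and the probe set of Ppan is shared with another gene, so both were left out. Every other gene was represented by its brightest probe set.

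The study plated cells of the fibroblast line MLg 2908 on a collagen gel and separated the cells that had moved into the gel (invading) from those on top of it (non-invading). Total RNA was hybridized to Affymetrix Mouse Gene 1.0 ST arrays. Both fractions were sampled at 72 hours in 4 experiments and at 96 hours in 5, which gave 18 samples, and the submitters describe these as biological replicates. The line came from newborn lung of the ddY strain and is wild type, with the sex not determined; all 4 groups share this background, and 1 cell line stands for all fibroblasts here. The labels mention TGFB1 treatment next to the assay for every sample, whereas the sample titles name no treatment and the study's legends describe the profiled cells as not treated, so no treatment was assumed.

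A ribosome is assembled in the nucleolus. RNA polymerase I transcribes the ribosomal RNA precursor, small nucleolar RNA-protein particles (snoRNPs) guide its methylation (box C/D particles) and pseudouridylation (box H/ACA particles), and a long series of assembly factors folds and cuts the precursor into a small and a large subunit. Each kind of snoRNP is built on a few core proteins. Fbl, the methyltransferase, works with Nop56 and Nop58 in box C/D particles, and Dkc1, the pseudouridine synthase, works with Nhp2, Gar1 and Nop10 in box H/ACA particles. Growing cells are known for high expression of these genes, which respond to MYC and to mTOR signalling.

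Of the 38 measured genes, 7 encode snoRNP core proteins, 3 belong to RNA polymerase I transcription, 5 are general nucleolar proteins, 11 act on the small and 12 on the large subunit. Values are log2 signals after RMA, the authors' normalization and summary of the probes. The mean log2 signal of the genes over all samples ran from 7.40 for Rrs1 to 11.7 for Ncl, against 7.14 for the median gene of the array. A gene was called higher or lower when its adjusted p from limma was under 0.10, the study's false discovery rate. Because many genes passed this limit, the first count of the factors in each comparison is given beside the percentage of all genes called in the same direction, and later counts are to be read against the same percentages.

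Fibroblast identity of the samples was examined first. Of 13 measured fibroblast markers, 11 lay above the median gene, among them Dcn, Fn1 and Vim, and the mean of the list ran from 11.02 to 11.26 over all samples. Thy1 and Fap lay below the median gene. In invading cells 5 of the 13 were lower at 72 hours and 5 at 96 hours, in both cases Col1a1, Col1a2, Col3a1, Col5a1 and S100a4, with Col3a1 lowest at log2 ratios of -0.34 and -0.35 (limma adjusted p = 0.0134 and 0.0071), and Pdgfrb was higher at 72 hours at 0.27 (adjusted p = 0.0376). Above the median gene were 1 of 8 epithelial, 0 of 6 endothelial and 1 of 5 leukocyte markers, namely Krt8 and Cd68. Krt8 was higher in invading cells at both times (0.53 and 0.32), Epcam (0.18) and Cdh1 (0.15) were higher at 96 hours, and so was Cd68 (0.56, adjusted p = 0.00334). The mean of the epithelial list was 6.20 to 6.38 in invading and 6.01 to 6.23 in non-invading samples at 72 hours, and 6.08 to 6.18 against 5.95 to 6.09 at 96 hours. A set of 6617 unnamed, low-numbered probe sets also differed between the fractions, with sample medians of 5.37 to 5.59 in invading and 5.81 to 6.20 in non-invading samples. The part of any of these in the differences below was not tested.

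Some samples stood apart in the whole set of factors. The mean log2 signal of the 38 factors at 72 hours was 9.59 and 9.54 in non-invading replicates 1 and 2 and 9.33 and 9.31 in replicates 3 and 4, while the invading samples ran from 9.37 to 9.49. At 96 hours non-invading replicate 4 was at 9.67, the other 4 non-invading samples ran from 9.41 to 9.49 and the invading samples from 9.58 to 9.76. These samples enter every comparison of their group. Leaving out any 1 non-invading sample of 72 hours gave 4 or 5 factors higher and 4 or 5 lower in invading cells at that time, against 5 and 4 with all samples. Over time in non-invading cells, 13 factors were higher and 6 lower with all samples, 9 higher and 9 lower without replicate 4 of 72 hours, and 9 higher and 5 lower without replicate 3. Leaving out non-invading replicate 4 of 96 hours raised the factors higher at 96 hours from 13 to 16.

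The 250 bases upstream of the RefSeq start site (build GRCm38.p6) are shown for the 4 box H/ACA core proteins, since these subunits of 1 particle differed in how they changed. Gar1 and Nhp2 were higher in invading cells at both times, Dkc1 had the largest rise with time among the core proteins in invading cells, and Nop10 passed no test. Capitals mark the letters CCGGAAG (the core bound by ETS factors) or TATAAA (the TATA box) on either strand. The windows are chr3:129831397-129831646 on the minus strand for Gar1, chr11:51619523-51619772 on the plus strand for Nhp2, chrX:75095604-75095853 on the plus strand for Dkc1 and chr2:112261676-112261925 on the plus strand for Nop10.
Gar1: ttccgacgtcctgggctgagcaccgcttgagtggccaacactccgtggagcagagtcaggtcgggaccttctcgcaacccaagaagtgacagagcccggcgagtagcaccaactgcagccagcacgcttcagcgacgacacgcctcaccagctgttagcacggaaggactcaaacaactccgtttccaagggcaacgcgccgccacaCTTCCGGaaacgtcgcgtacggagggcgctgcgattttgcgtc
Nhp2: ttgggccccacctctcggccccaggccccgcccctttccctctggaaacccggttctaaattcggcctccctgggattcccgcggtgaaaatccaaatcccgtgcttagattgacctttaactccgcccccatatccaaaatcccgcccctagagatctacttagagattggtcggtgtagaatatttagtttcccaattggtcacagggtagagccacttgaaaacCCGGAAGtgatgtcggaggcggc
Dkc1: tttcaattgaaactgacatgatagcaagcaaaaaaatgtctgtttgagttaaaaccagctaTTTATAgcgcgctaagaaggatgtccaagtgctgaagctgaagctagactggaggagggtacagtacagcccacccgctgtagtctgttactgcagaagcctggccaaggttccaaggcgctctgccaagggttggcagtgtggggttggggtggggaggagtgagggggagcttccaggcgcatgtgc
Nop10: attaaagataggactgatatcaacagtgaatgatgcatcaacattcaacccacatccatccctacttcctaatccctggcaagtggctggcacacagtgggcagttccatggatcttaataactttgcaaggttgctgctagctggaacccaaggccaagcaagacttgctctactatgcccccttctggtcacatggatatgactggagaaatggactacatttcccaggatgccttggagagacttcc

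The annotated gene of Gar1 reaches 11 bases into its window, and the other 3 windows end where their genes begin. The ETS core began 43 bases before the start site of that entry of Gar1, where it lies on the opposite strand, and 23 bases before the start of Nhp2. The TATA letters of Dkc1 lay 189 bases upstream, and none of the searched letters were found in the window of Nop10. Among the 33 measured factors with a promoter in RefSeq, 8 held the ETS core in any of their promoters (24.2%). Counted in the same way, 10.7% of the measured genes with a promoter held it. Of all 32851 promoters, each counted singly and so in a different unit, 6.91% held it. The percentages of all promoters below are in that unit as well. Fbl, Npm1, Rrs1, Bop1 and Rrp12 are not among the 33. The 8 were Ddx10, Gar1, Heatr1, Ltv1, Nhp2, Nip7, Nolc1 and Nop2. CACGTG, the E-box bound by MYC, was present in 1 of 33 (3.03%), that of Nop2, against 6.02% of all promoters and 8.11% of the measured genes. TATAAA was present in 2 of 33 (6.06%), against 12.4% of all promoters and 12.5% of the measured genes. The palindromic NRF1 site, held by 0.782% of all promoters and 1.33% of the measured genes, was found in 0 of the 33. Nop2 held both CACGTG and the ETS core, and a match describes letters only. The ETS core was present both in genes higher in invading cells (Gar1, Nhp2, Nip7) and in Heatr1, which passed no test.

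The first comparison asks which factors differ between cells that invaded and cells that did not. At 72 hours Fbl, Gar1 and Nhp2 of the snoRNP core, the polymerase I factor Ubtf and the large subunit factor Nip7 were higher in invading cells, and Nop58, Gtpbp4, Gnl3 and Wdr43 were lower. At 96 hours 13 factors were higher and 0 were lower. Fbl, Gar1, Nhp2, Ubtf and Nip7 were higher at both times. These were 5 of 38 factors, beside 8.39% of all genes, and 0 of 38 were lower at both, beside 9.6%. None of the differences reached 2-fold. The study's signature also asked for a minimum fold change. It was met by 0 factors at 72 hours and by 3 at 96 hours (Fbl, Gar1 and Nhp2). Bulk RNA was measured, so fewer cells with a transcript and less of it per cell cannot be told apart.

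At 72 hours 5 of 38 factors (13.2%) were higher, beside 13% of all genes, and 4 of 38 (10.5%) were lower, beside 13.5%, and 26.5% of all genes were called in either direction. At 96 hours the 13 higher factors were 34.2% of the set, beside 16.7% of all genes, and the 0 lower ones stood beside 14.7%, with 31.4% of all genes called in either direction. At an unadjusted p under 0.05, limma gave 15 higher and 1 lower at 96 hours. The factors are bright genes, and among the 9406 genes at least as bright as the dimmest of them 18.8% were higher and 24.5% lower at 72 hours and 25.3% and 23.8% at 96 hours. The median log2 ratio of the factors was -0.03 at 72 hours, beside 0.04 for all genes, and 0.11 at 96 hours, beside 0.02. Centring each array on its median moved the medians of all genes to 0.12 and 0.14 and those of the factors to 0.05 and 0.23, and it raised the count of higher factors at 96 hours from 13 to 25. The negative sign at 72 hours thus depended on the scaling, and it also turned without invading replicate 4 (0.04, beside 0.03 for all genes) or non-invading replicate 1 or 2 (0.01 each). The median of the factors at 72 hours still lay below that of all genes in every alternative but the one without invading replicate 4. With the arrays quantile normalized again it was 0.032, beside 0.095. At 96 hours the median of the factors lay above that of all genes in each alternative. These medians were closest with the arrays quantile normalized again, at 0.13 for the factors and 0.11 for all genes.

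**Figure D1:**
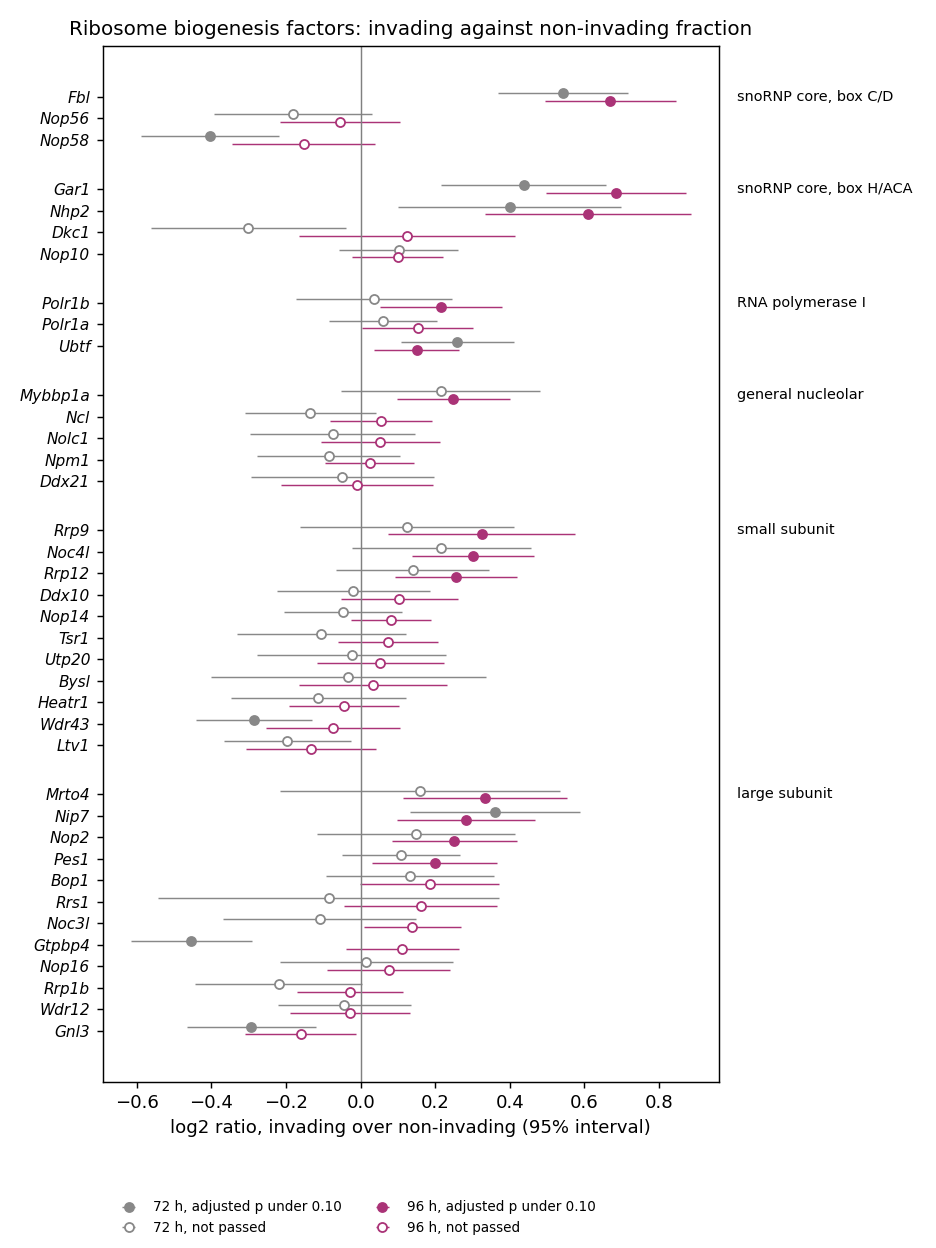
Log2 ratio of invading over non-invading cells for each of the 38 factors, grouped by role, at 72 and at 96 hours, with 95% intervals from limma as bars; filled points have an adjusted p under 0.10. Fbl, Gar1 and Nhp2 lie to the right at both times, and Gtpbp4 moves from -0.45 at 72 hours to 0.11 at 96 hours.

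Fbl, the methyltransferase of box C/D particles, lies at chr7:28168893-28179269 in GRCm38.p6. Its log2 signal at 72 hours was 10.29, 10.32, 10.24 and 10.17 in the invading samples and 9.85, 9.78, 9.59 and 9.63 in the non-invading ones. At the later time it was 10.74, 10.46, 10.56, 10.55 and 10.64 against 9.97, 9.99, 9.96, 10.02 and 9.65. Every invading sample thus lay above every non-invading sample of its time. The log2 ratio was 0.54 (SE 0.0771, limma adjusted p = 0.00214) at 72 hours and 0.67 (SE 0.0799, adjusted p = 0.000208) at 96 hours. A second, dimmer Fbl probe set gave 0.32 (adjusted p = 0.04) and 0.38 (adjusted p = 0.00579).

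The partners of Fbl did not follow it. Nop58 at 72 hours was 9.27, 9.29, 9.23 and 9.09 in invading and 9.79, 9.63, 9.59 and 9.49 in non-invading samples. All invading samples were below all non-invading ones, with a log2 ratio of -0.40 (SE 0.0822, limma adjusted p = 0.00957). At 96 hours Nop58 was 9.75, 9.46, 9.35, 9.59 and 9.40 against 9.57, 9.77, 9.52, 9.81 and 9.64, the groups overlapped, and the ratio of -0.15 (adjusted p = 0.227) did not pass.

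Nop56, the other scaffold of the box C/D particle, was 10.94, 10.81, 10.77 and 10.78 in invading and 11.12, 11.19, 10.88 and 10.83 in non-invading samples at 72 hours. The 96-hour values were 11.13, 10.98, 10.89, 10.96 and 10.99 against 10.98, 11.09, 10.87, 11.24 and 11.05. The groups overlapped at both times, and the log2 ratios of -0.18 (limma adjusted p = 0.214) and -0.06 (adjusted p = 0.625) did not pass.

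Gar1, a small subunit of box H/ACA particles, had the highest ratio of all 38 factors at 96 hours. Its log2 signal at 72 hours was 9.38, 9.49, 9.41 and 9.44 in invading and 9.24, 9.08, 8.83 and 8.83 in non-invading samples. By 96 hours it was 10.14, 10.03, 10.09, 10.05 and 10.03 against 9.16, 9.48, 9.41, 9.63 and 9.21. The invading samples lay close together and above the non-invading ones at both times. The log2 ratio was 0.44 (SE 0.0984, limma adjusted p = 0.0147) and 0.68 (SE 0.0858, adjusted p = 0.000266).

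Nhp2, which joins the same particle, was 9.69, 9.57, 9.35 and 9.69 in invading and 9.49, 9.25, 9.05 and 8.90 in non-invading samples at 72 hours. At 96 hours it was 9.79, 9.40, 9.18, 9.41 and 9.43 against 9.00, 8.61, 8.67, 9.13 and 8.77. The groups overlapped at 72 hours and did not at 96 hours. The log2 ratio was 0.40 (SE 0.133, limma adjusted p = 0.0642) at 72 hours and 0.61 (SE 0.125, adjusted p = 0.00428) at 96 hours. Leaving out any 1 of invading replicates 1, 2 and 4 or non-invading replicates 3 and 4 ended the call at 72 hours, with the adjusted p reaching 0.147.

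Dkc1, the pseudouridine synthase itself, was 8.86, 8.57, 8.81 and 8.47 in invading and 9.17, 9.08, 8.87 and 8.80 in non-invading samples at 72 hours. At the later time it was 9.54, 9.54, 9.48, 9.49 and 9.34 against 8.90, 9.39, 9.23, 9.76 and 9.50. The groups overlapped at both times, and the non-invading samples at 96 hours spread widely. The log2 ratio was -0.30 (95% interval -0.56 to -0.04, limma adjusted p = 0.101) at 72 hours and 0.12 (-0.17 to 0.41, adjusted p = 0.533) at 96 hours, so neither passed. At 72 hours Dkc1 was called lower in 8 of 17 alternatives.

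Nop10, the smallest core protein, was 10.84, 10.90, 10.88 and 10.88 in invading and 10.88, 10.87, 10.66 and 10.70 in non-invading samples at 72 hours. The 96-hour values were 10.96, 10.98, 10.84, 10.86 and 11.01 against 10.86, 10.76, 10.75, 10.89 and 10.88. These groups overlapped, with log2 ratios of 0.10 (limma adjusted p = 0.355) and 0.10 (adjusted p = 0.214). Of the 7 core proteins, 3 were higher and 1 lower at 72 hours, beside 13% and 13.5% of all genes, and 3 were higher and 0 lower at 96 hours, beside 16.7% and 14.7%.

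**Figure D2:**
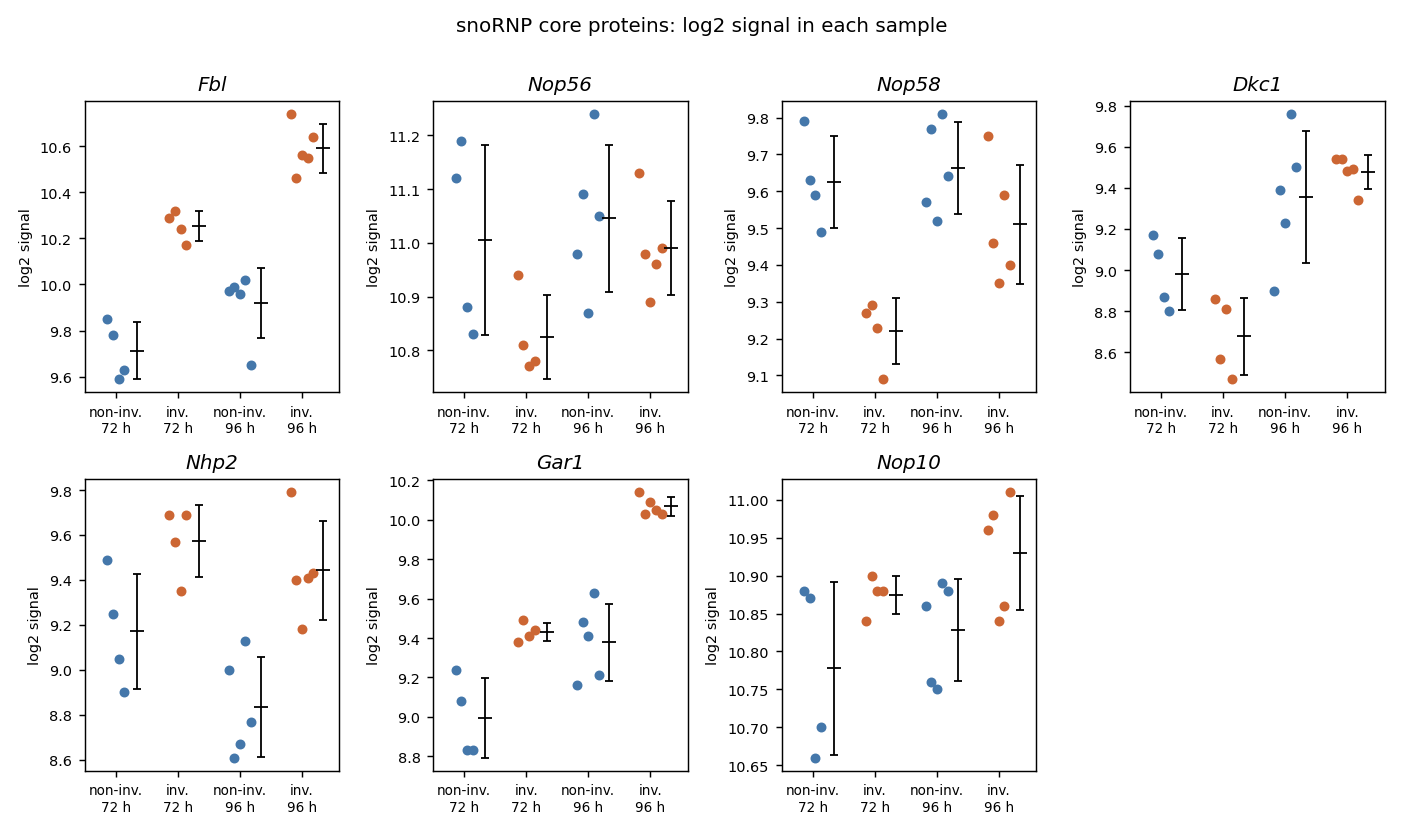
Log2 signal of the 7 snoRNP core proteins in each of the 18 samples, by fraction and time, with the mean and SD of each group as the bar (n = 4 at 72 hours and 5 at 96 hours). The invading samples of Fbl and Gar1 lie above the non-invading samples of the same time, and Nop58 lies below them at 72 hours.

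Gtpbp4, a GTPase that joins the early large subunit, had the lowest ratio at 72 hours. Its log2 signal was 9.37, 9.32, 9.38 and 9.28 in invading and 9.93, 9.78, 9.65 and 9.80 in non-invading samples. The groups did not overlap, and the log2 ratio was -0.45 (SE 0.0719, limma adjusted p = 0.00331). By 96 hours it was 10.16, 10.26, 10.19, 10.34 and 10.26 against 9.996, 10.13, 10.05, 10.34 and 10.14. The groups then overlapped, with a ratio of 0.11 (SE 0.0689, adjusted p = 0.268).

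Among the other large subunit factors, Nip7 was higher at 72 hours (log2 ratio 0.36, limma adjusted p = 0.0349) and at 96 hours (0.28, adjusted p = 0.0288). Gnl3, the nucleolar GTPase also called nucleostemin, was lower at 72 hours at -0.29 (adjusted p = 0.0266), and its value at 96 hours was -0.16 (adjusted p = 0.105). At 96 hours Mrto4 (0.33), the rRNA methyltransferase Nop2 (0.25) and Pes1 (0.20) were higher as well, so 4 of 12 large subunit factors were called. Pes1 forms a complex with Bop1 and Wdr12, and these partners gave 0.19 (adjusted p = 0.133) and -0.03 (adjusted p = 0.808) at 96 hours. Pes1 had an adjusted p of 0.0773 and lost the call in 8 of the 10 fits that left out 1 sample.

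Of the 11 small subunit factors, Wdr43 was lower at 72 hours at -0.29 (limma adjusted p = 0.019). At 96 hours Rrp9, a protein of the U3 particle that helps to cut the precursor, was higher at 0.32 (adjusted p = 0.0562), Noc4l at 0.30 (adjusted p = 0.0115) and Rrp12 at 0.26 (adjusted p = 0.0251). Only the groups of Noc4l among these 3 did not overlap, and Rrp9 lost its call in 3 of 10 fits without 1 sample. In all, the groups did not overlap at 96 hours with invading samples higher for 4 of 38 factors (Fbl, Gar1, Nhp2 and Noc4l), beside 9.35% of all genes. With invading samples lower this held for 0 of 38, beside 8.8%.

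Of the 3 polymerase I genes, Ubtf, which binds the ribosomal DNA promoter, was higher at 72 hours (0.26, limma adjusted p = 0.0258) and 96 hours (0.15, adjusted p = 0.052), the latter lost without invading replicate 3 or non-invading replicate 1. Polr1b, the second largest polymerase subunit, was higher at 96 hours at 0.22 (adjusted p = 0.0518), a call lost in 3 of 10 fits without 1 sample, and the value for Polr1a was 0.15 (adjusted p = 0.119). Of the 5 general nucleolar proteins, Mybbp1a was higher at 96 hours at 0.25 (adjusted p = 0.0206). The abundant nucleolar proteins Ncl and Npm1 passed at neither time, with log2 ratios of -0.13 and -0.09 at 72 hours and 0.05 and 0.02 at 96 hours. At 72 hours, 3 brighter probe sets shared by Npm1 and Gm15484 were lower, at -0.19 to -0.22 (adjusted p from 0.0339 to 0.0595), and these cannot be assigned to either gene.

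The second comparison asks how the factors differ between 72 and 96 hours in each fraction. Most factors that passed were higher at 96 hours, with Gtpbp4, Dkc1 and Gar1 leading in the invading and Wdr12 and Ltv1 in the non-invading cells. Bop1 and Mybbp1a were lower at 96 hours in both fractions. Of the 38, 18 were higher and 2 lower in invading cells, and 13 were higher and 6 lower in non-invading cells. Whether the arrays of both times were processed together is not given in the sources used here, so time and such a batch cannot be told apart.

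The 18 higher factors in invading cells were 47.4% of the set, beside 18.2% of all genes, and the 2 lower ones were 5.26%, beside 16.7%, out of 34.8% called in either direction. In non-invading cells the shares were 34.2% higher, beside 15.4%, and 15.8% lower, beside 12.2%, out of 27.6% called in either direction. Among the genes at least as bright as the dimmest factor, 34% were higher and 18.9% lower in invading cells, and 28% and 18.1% in non-invading cells. The median log2 ratio of the factors was 0.21 in invading cells, beside -0.03 for all genes, and 0.08 in non-invading cells, beside -0.02. The groups did not overlap for 17 of 38 factors higher and 3 of 38 lower in invading cells, beside 13.3% and 10.3% of all genes. In non-invading cells this held for 10 of 38 higher and 0 of 38 lower, beside 12.2% and 7.8%.

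**Figure D3:**
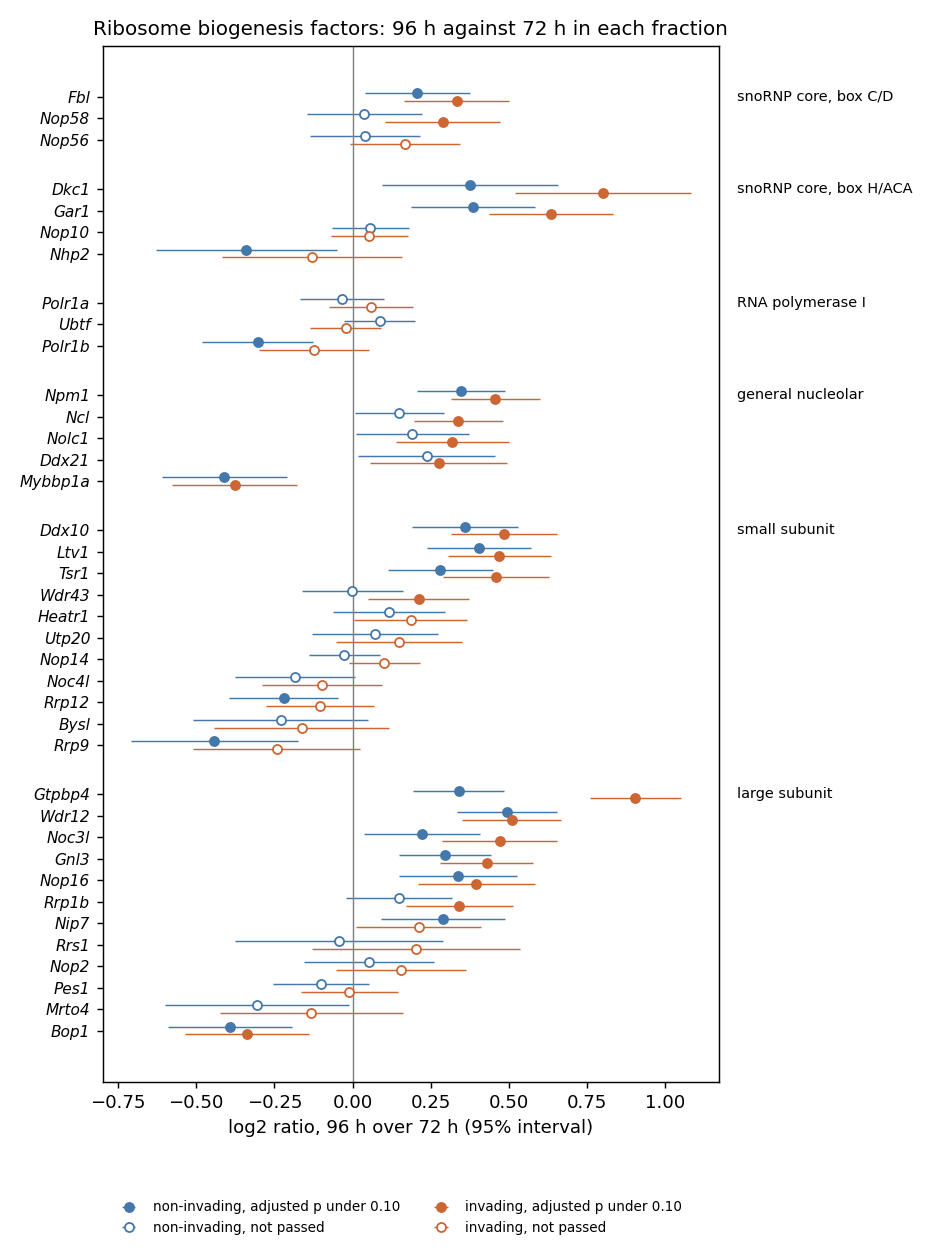
Log2 ratio of 96 over 72 hours for each of the 38 factors in invading and non-invading cells, grouped by role, with 95% intervals from limma as bars; filled points have an adjusted p under 0.10. Gtpbp4 in invading cells lies farthest right at 0.90, and Mybbp1a and Bop1 lie left of 0 in both fractions.

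Gtpbp4 had the largest change. Its 4 invading samples at 72 hours lay between 9.28 and 9.38 and its 5 at 96 hours between 10.16 and 10.34, a log2 ratio of 0.90 (SE 0.0688, limma adjusted p = 2.61e-07). In non-invading cells the samples moved from 9.65 to 9.93 up to 9.996 to 10.34, with a ratio of 0.34 (SE 0.0688, adjusted p = 0.00218). The times did not overlap in either fraction.

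Among the core proteins, the invading samples of Dkc1 lay between 8.47 and 8.86 at 72 hours and between 9.34 and 9.54 at 96 hours. The log2 ratio was 0.80 (SE 0.133, limma adjusted p = 0.000279) without overlap, and in non-invading cells 0.37 (adjusted p = 0.0576) with overlap. Gar1 rose by 0.63 (SE 0.0938, adjusted p = 9.23e-05) in invading cells, where the times did not overlap, and by 0.39 (adjusted p = 0.00745) in non-invading cells, where they did. Nhp2 went the other way, at -0.13 (adjusted p = 0.548) in invading and -0.34 (adjusted p = 0.0925) in non-invading cells, and the latter call was lost in 13 of 26 alternatives. Nop10 gave 0.05 and 0.06 and did not pass.

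In the box C/D particle, Nop58 rose by 0.29 (limma adjusted p = 0.0217) in invading cells and gave 0.04 (adjusted p = 0.813) in non-invading cells. Nop56 passed in neither, at 0.17 (adjusted p = 0.164) and 0.04 (adjusted p = 0.788). The probe sets of Fbl disagreed on time. The brightest was higher at 96 hours, at 0.33 (adjusted p = 0.00488) in invading and 0.21 (adjusted p = 0.0761) in non-invading cells, but the second gave -0.16 (adjusted p = 0.23) and -0.22 (adjusted p = 0.0903), the latter past the test in the opposite direction. No direction with time is therefore given for Fbl, which is counted above by its brightest probe set.

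Of the complex of Pes1, Bop1 and Wdr12, which acts on large subunit precursors, the parts moved in different directions. Wdr12 at 72 hours was 9.34, 9.20, 9.27 and 9.05 in invading and 9.21, 9.36, 9.28 and 9.18 in non-invading samples. At 96 hours it was 9.75, 9.84, 9.50, 9.74 and 9.77 in invading and 9.71, 9.79, 9.61, 9.88 and 9.76 in non-invading samples. Every 96-hour sample lay above every 72-hour sample, with log2 ratios of 0.51 (SE 0.0754, limma adjusted p = 9.42e-05) and 0.49 (SE 0.0754, adjusted p = 0.00023). A second Wdr12 probe set gave 0.48 and 0.31, both past the test.

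Bop1 at 72 hours was 9.82, 9.92, 9.74 and 9.96 in invading and 9.88, 9.89, 9.57 and 9.56 in non-invading samples. At the later time it was 9.59, 9.40, 9.46, 9.62 and 9.55 in invading and 9.44, 9.24, 9.19, 9.59 and 9.22 in non-invading samples. The times did not overlap in invading cells and overlapped in non-invading cells through 1 sample at 9.59. The log2 ratios were -0.34 (SE 0.0939, limma adjusted p = 0.0132) and -0.39 (SE 0.0939, adjusted p = 0.00697). Pes1 gave -0.01 and -0.10 and passed in neither fraction.

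Mybbp1a, a nucleolar protein that binds MYB and takes part in precursor processing, was 10.95, 10.97, 10.78 and 10.82 in invading and 10.83, 10.92, 10.51 and 10.41 in non-invading samples at 72 hours. The 96-hour values were 10.60, 10.43, 10.48, 10.51 and 10.51 in invading and 10.31, 10.21, 10.14, 10.47 and 10.16 in non-invading samples. The times did not overlap in invading cells, and in non-invading cells they overlapped. The log2 ratios were -0.38 (SE 0.0949, limma adjusted p = 0.00716) and -0.41 (SE 0.0949, adjusted p = 0.00542). The other general nucleolar proteins, Npm1 (0.46), Ncl (0.34), Nolc1 (0.32) and the helicase Ddx21 (0.28), were higher in invading cells, and of these Npm1 (0.35) also passed in non-invading cells.

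Among small subunit factors, Ltv1, an assembly factor of the late small subunit, was 8.55, 8.66, 8.66 and 8.72 in invading and 8.95, 8.84, 8.68 and 8.90 in non-invading samples at 72 hours. By 96 hours it was 9.17, 9.07, 9.03, 9.26 and 9.05 in invading and 9.19, 9.22, 9.05, 9.47 and 9.31 in non-invading samples. The times did not overlap in either fraction. The log2 ratios were 0.47 (SE 0.0782, limma adjusted p = 0.000276) and 0.40 (SE 0.0782, adjusted p = 0.00153).

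Rrp9 had the lowest ratio of all in non-invading cells. It was 8.83, 8.93, 8.53 and 8.53 there at 72 hours and 8.24, 8.24, 7.91, 8.63 and 8.30 at 96 hours, overlapping through 1 sample, with a log2 ratio of -0.44 (SE 0.127, limma adjusted p = 0.0202). In invading cells it was 8.72, 8.83, 8.66 and 9.11 against 8.64, 8.40, 8.55, 8.64 and 8.70, and the ratio of -0.24 (adjusted p = 0.183) did not pass. The non-invading samples of Bop1, Mybbp1a and Rrp9 at 72 hours showed the same higher pair and lower pair as the mean of all 38 factors.

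**Figure D4:**
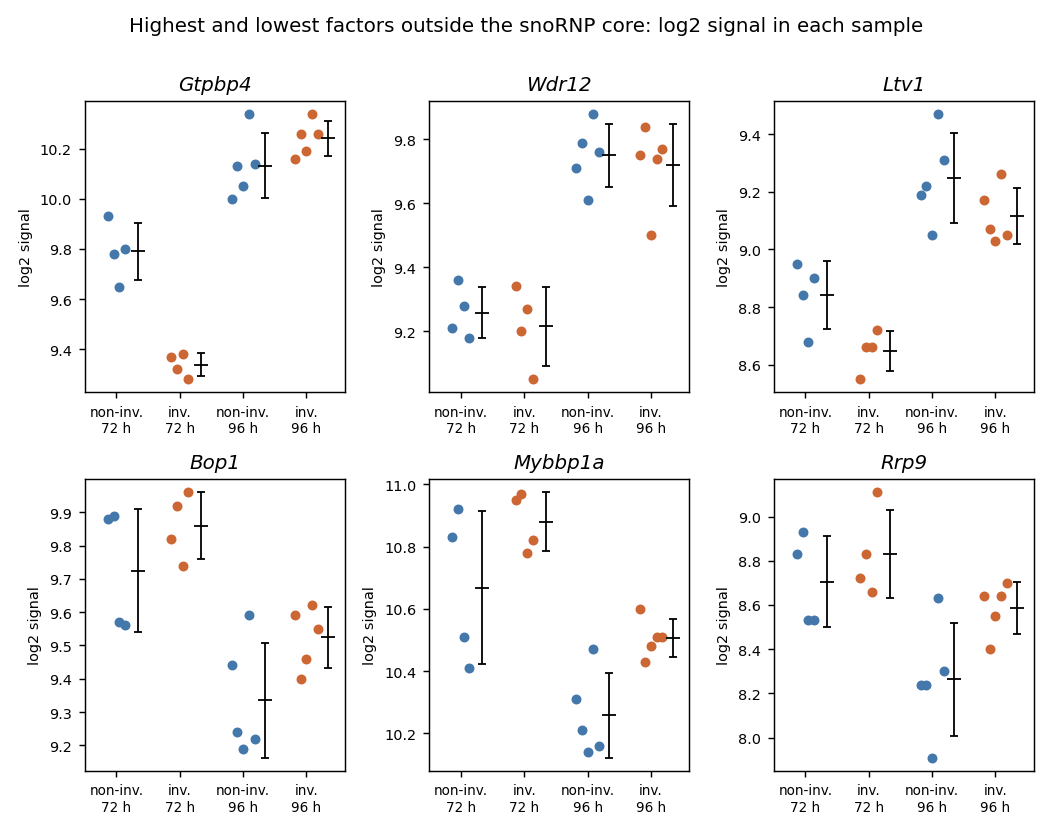
Log2 signal in each of the 18 samples for the 6 factors outside the snoRNP core that were among the 2 highest or the 2 lowest past the test in a comparison, by fraction and time, with the mean and SD of each group as the bar (n = 4 at 72 hours and 5 at 96 hours). Gtpbp4, Wdr12 and Ltv1 are higher at 96 hours in both fractions, and Bop1 and Mybbp1a are lower.

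Further small subunit factors higher in both fractions were the helicase Ddx10 (0.48 in invading and 0.36 in non-invading cells) and Tsr1 (0.46 and 0.28). Wdr43 gave 0.21 (limma adjusted p = 0.0533) in invading and 0.00 (adjusted p = 0.993) in non-invading cells. Rrp12 was lower in non-invading cells at -0.22 (adjusted p = 0.0703), a call lost in 9 of 26 alternatives, the replicate block and median centring among them. Of large subunit factors, Noc3l (0.47 and 0.22), Gnl3 (0.43 and 0.30) and Nop16 (0.40 and 0.34) were higher in both fractions. The call of Noc3l in non-invading cells was lost in 13 of 26 alternatives. Rrp1b passed in invading cells (0.34) and Nip7 in non-invading cells (0.29). No polymerase I gene passed in invading cells, and Polr1b was lower in non-invading cells at -0.30 (adjusted p = 0.0161). In all, 12 of 38 factors, Fbl included by its brightest probe set, were called higher in both fractions, beside 12.5% of all genes. Called lower in both were 2 of 38, beside 7.77%. The factors Nop56, Nop10, Rrs1, Nop14, Polr1a, Bysl, Heatr1 and Utp20 passed no test in any of the 4 comparisons, and these 8 represent every role but the general nucleolar one.

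A factor called in 1 fraction is not thereby shown to differ between fractions, so the change of the fraction ratio from 72 to 96 hours was tested directly. Only Gtpbp4 passed, beside 0.015% of all genes, with its ratio rising by 0.57 on the log2 scale (SE 0.0973, 95% interval 0.36 to 0.77, limma adjusted p = 0.0842). The call was lost in 17 of 26 alternatives, and over all 26 the value ran from 0.52 to 0.62 and the adjusted p from 0.0365 to 0.194. The next largest was Dkc1 at 0.42 (0.03 to 0.82, adjusted p = 0.55). At an unadjusted p under 0.05, limma gave these 2 factors higher and 0 lower. The change was above 0 for 35 of 38 factors, with a median of 0.12 beside -0.01 for all genes. Of the lists described below, it was above 0 for 13 of 13 proliferation markers (median 0.31). The same held for 33 of 43 further small subunit genes (0.10) and 36 of 48 further large subunit genes (0.09). For cytosolic ribosomal proteins it was 34 of 55 (0.016), and for the MYC network 6 of 12 (0.015). These numbers carry no test of their own.

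Other genes of the pathway were set beside the factors. Of 43 further small subunit genes, 5 were higher in invading cells and 9 lower at 72 hours, and 13 were higher with 7 lower at 96 hours. Over time 26 were higher and 4 lower in invading, and 15 higher and 5 lower in non-invading cells. Dhx37, a helicase that releases the U3 particle, was higher at both times (0.44 and 0.38), and Esf1 was lower at both (-0.77 and -0.65). Of 48 further large subunit genes, 8 were higher and 10 lower at 72 hours, 14 and 4 at 96 hours, 22 and 4 over time in invading and 17 and 4 in non-invading cells. Urb2 was lowest at both times (-0.80 and -0.59), and Rrp15 was highest at 96 hours (0.51). In both lists more genes were higher than lower at 96 hours and the reverse held at 72 hours. Their median log2 ratios at 96 hours were 0.07 and 0.07.

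Of 13 further polymerase I genes, 0 were higher and 2 lower at 72 hours, and 3 were higher and 2 lower at 96 hours. Taf1d, a part of the promoter selectivity factor, was lower at both times (-0.79 and -0.50). Of 11 snoRNP assembly factors, 3 were higher and 2 lower at 72 hours, and 5 were higher and 2 lower at 96 hours. Shq1, the chaperone that holds Dkc1 before assembly, was higher at both times (0.56 and 0.48), and Tgs1, which caps snoRNAs, was lower at both (-0.44 and -0.40). Of 13 genes of the RNA exosome, which trims the precursor, 2 were higher and 3 lower at 72 hours, whereas 4 were higher and 2 lower at 96 hours. Exosc5 was higher at both times (0.46 and 0.45), and Dis3 (-0.50 and -0.24) and Exosc1 (-0.46 and -0.29) were lower at both.

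The cytosolic ribosomal proteins are the cargo of this pathway. Of 79 listed, 55 were measured. In invading cells 21 were higher and 2 lower at 72 hours. By 96 hours 28 were higher and 2 lower. Rpl24 was highest (0.52 and 0.61) and Rpl12 lowest (-0.76 and -0.70). The Rpl12 probe set was among the dimmer ones of this list, with a mean log2 signal of 8.32 against 11.08 for Rpl24. Over time 10 were higher and 10 lower in invading cells, and 10 higher and 13 lower in non-invading cells. Their median log2 ratio was 0.14 at both times, beside -0.03 and 0.11 for the factors, and the difference between the lists was not tested.

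Of 12 genes of the MYC network, 4 were higher and 1 lower at 72 hours, while 5 were higher and 1 lower at 96 hours, with Mlx highest (0.51 and 0.62) and Mga lowest (-0.69 and -0.59). Of 13 proliferation markers, 0 were higher and 5 lower in invading cells at 72 hours, and 4 were higher and 1 lower at 96 hours. Over time 6 were higher and 0 lower in invading cells, and 0 higher and 3 lower in non-invading cells. The mean of this list was 9.89 to 10.11 in invading and 10.14 to 10.42 in non-invading samples at 72 hours, and 10.05 to 10.30 against 9.89 to 10.44 at 96 hours. Its part in the differences of the factors was not tested.

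**Figure D5:**
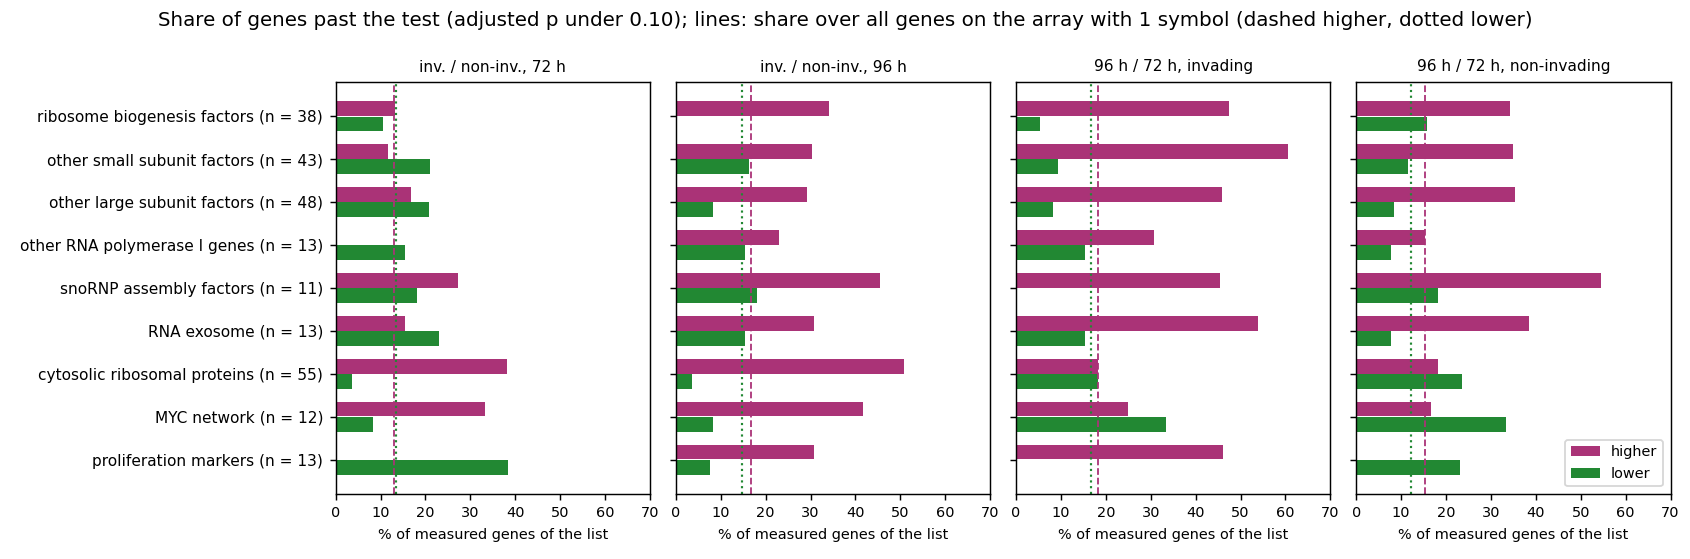
Percentage of the measured genes of each list that were higher or lower (limma adjusted p under 0.10) in the 4 comparisons, with n genes per list and with vertical lines for the percentage over all genes (dashed for higher, dotted for lower). The higher share of the ribosome biogenesis factors goes from 13.2% at 72 hours to 34.2% at 96 hours and is 47.4% over time in invading cells.

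Several factors carry snoRNA genes in their introns, and RefSeq coordinates (GRCm38.p6) placed 21 annotated snoRNAs inside 8 of the listed genes, 4 of them measured on the array. These were examined after their values were seen. Snord82 lies at chr1:86356260-86356327 inside Ncl, the gene of nucleolin. It was higher in invading cells, with a mean of 12.3 ± 0.0308 (SD, n = 4) against 11.8 ± 0.0384 at 72 hours and a log2 ratio of 0.47 (limma adjusted p = 0.00117), and of 0.45 (adjusted p = 0.00442) at 96 hours. Over time it was lower, at -0.50 (adjusted p = 0.00023) in invading and -0.47 (adjusted p = 6e-04) in non-invading cells, whereas the host Ncl gave 0.34 and 0.15.

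Snord53, at chr17:71640889-71640956 inside Wdr43, changed most with time. Its means were 11.2 in invading and 11.1 in non-invading cells at 72 hours, and 9.84 and 9.96 at 96 hours. The log2 ratios were -1.37 (limma adjusted p = 9.99e-07) and -1.12 (adjusted p = 1.42e-05), while Wdr43 gave 0.21 and 0.00. Snora75, also inside Ncl, was higher in invading cells at 72 hours at 1.07 (adjusted p = 0.0483), with a wide spread of the invading samples (SD 0.732), and Snord57 inside Nop56 passed no test. Whether these probe sets detect the mature snoRNA, the host precursor or both was not tested.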

How the data were processed

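RNA from 2 fractions of MLg 2908 cells at 2 times was measured on 18 arrays (groups of 4 at 72 and 5 at 96 hours). The deposited values are log2 signals that the authors had background corrected, sketch-quantile normalized and summarized per probe set by RMA (Affymetrix Expression Console 1.2 in the submitters' processing notes). They were used as deposited, from 2.94 to 14.7, with sample medians of 6.46 to 6.65. Precision is limited by the number of arrays. The table held 35556 probe sets. By the platform annotation 21789 had 1 symbol, 1621 several and 12146 none.

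limma 3.58.1 in R 4.3.3 was fitted over all probe sets, separately per time for the fractions and over all 18 samples for the times, and tested on simulated data. Of 100 simulated 1.5-fold differences between fractions, 67 were recovered at 72 hours and 85 at 96 hours. Counts of calls at these times therefore come from fits of unequal power. Adjusted p-values are Benjamini-Hochberg over 35556 probe sets. They judge each difference against the spread between the replicates of 1 line. The members and lists were chosen with earlier results of these data known. Single-sample values are given for the 7 core proteins and, per comparison, the 2 highest and 2 lowest members past the test. Whether same-numbered samples belong to 1 experiment is not given in the sources used here, and the main fit did not pair them. The study named a paired t-test for growth factor receptor values from these arrays and a limma t-test for its gene-wise calls. Alternatives covered scaling, filters, probe set choice, threshold, a block and each sample left out. In the comparisons over time the block joined samples of both times that share a replicate number.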

Additional observations from a re-analysis of the deposited data

Results flagged for a closer look

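Samples that stood apart from the rest of their group were looked for in 13 factors, over 52 combinations of gene and group, of which chance alone would mark about 1 in 20. Fbl in non-invading replicate 5 at 96 hours was 9.65, and the nearest of the others was 9.96. Wdr12 in invading replicate 3 at 96 hours was 9.50, and the nearest was 9.74. The fraction ratio of Gtpbp4 changed by 0.57 (log2) between 72 and 96 hours, past the test of that difference.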

How the results depend on the processing

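The calls of Fbl and Gar1 between fractions at both times, of Gtpbp4 and Nop58 at 72 hours and of Nhp2 at 96 hours held under every alternative run, as did those of Gtpbp4, Dkc1, Gar1, Wdr12, Ltv1, Bop1, Mybbp1a and Rrp9 named with single-sample values over time, except that Dkc1 lost its call in non-invading cells under 6 of 26. Fbl over time in non-invading cells turned to -0.008 (limma adjusted p = 0.959) with the mean of all probe sets, which disagree. Its call was lost under 10 of the 26 alternatives, that one included. The 13 factors higher at 96 hours became 25 with arrays centred on the median over all probe sets. That centring moved the median log2 ratio of all genes from 0.02 to 0.14. Sample medians over the genes with 1 symbol ran from 7.10 to 7.15 in invading and from 7.09 to 7.15 in non-invading samples. Those of the unnamed, low-numbered probe sets ran from 5.37 to 5.59 and from 5.81 to 6.20. The part of the unnamed probe sets in the array medians, and so in the count of 25, was not tested. The 0 lower at 96 hours became 1 with repeated quantile normalization, signals above 100, probe sets with 1 symbol, an intensity trend, the mean of probe sets and 1 fit over 18 samples. The 1 change of ratio became 0 with probe sets of 1 symbol, a threshold of 0.05, the mean of probe sets and the replicate block. Leaving out each sample in turn gave 4 to 5 higher and 4 to 5 lower at 72 hours, 10 to 16 higher and 0 to 2 lower at 96 hours (2, Nop58 and Gnl3, without invading replicate 1), 16 to 19 higher and 2 to 2 lower over time in invading cells, 9 to 14 higher and 4 to 9 lower in non-invading cells, and 0 to 1 higher and 0 to 0 lower for the change of ratio. Whether same-numbered samples form pairs was not settled, and the main fit left them unpaired. Their deviations had correlations from -0.07 to 0.09 at 72 hours, with 1 of 4 highest with its own number. At 96 hours the correlations ran from 0.05 to 0.17, with 4 of 5 highest with their own number. With the replicate block the counts higher and lower were 5 and 5 at 72 hours, 15 and 0 at 96 hours, 18 and 2 over time in invading cells, 14 and 5 in non-invading cells, and 0 and 0 for the change of ratio.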
